A study of Mus musculus with 8 samples.

Results

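The drug metabolism enzyme families were followed in mouse bile duct cells placed in organoid culture. The set comprised 65 of 174 protein-coding genes whose symbols begin with the letters of 13 families. The 65 were chosen by their measured level, at least 1 RPKM in at least 2 of 8 libraries, whatever the group. RPKM is the deposited unit, a read count per gene length and per sequencing depth. The families were the cytochrome P450 genes Cyp1, Cyp2, Cyp3 and Cyp4, the glucuronosyltransferases Ugt1 and Ugt2, the sulfotransferases Sult, the carboxylesterases Ces, and the glutathione transferases Gsta, Gstm, Gstp, Gstt and Gsto. Of the 65 genes 31 were P450 genes, 9 carboxylesterases, 5 glucuronosyltransferases, 4 sulfotransferases and 16 glutathione transferases, and 1 further alpha-class gene was left out. The letters also caught 5 P450 genes with longer numbers (Cyp20a1, Cyp27a1, Cyp27b1, Cyp39a1 and Cyp46a1), which act mostly on sterols and vitamin D or have no assigned substrate. The whole table held 47729 genes, of which 12900 passed the same level rule.

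The question of the series is how the transcriptome of EpCAM+ ductal cells changes in culture. EpCAM is an adhesion protein on the surface of bile duct epithelium, and the cells were sorted with it by flow cytometry from the livers of healthy male C57/B6 adults. There were 2 libraries of freshly isolated cells, and after culture in Matrigel with organoid medium 2 libraries at 12 h, 1 at 24 h, 1 titled 48h whose other labels give 24 h, and 2 of organoids at 6 days. All groups share strain, sex and sort, no genetic change or drug is given for any of them, and nothing in the labels ties the libraries of a group to separate animals. The p-values thus cover only the spread between these libraries, possibly technical.

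Drug metabolism enzymes act in steps. P450 enzymes and carboxylesterases oxidise or cleave lipophilic compounds, and glucuronosyltransferases, sulfotransferases and glutathione transferases then join glucuronic acid, sulfate or glutathione to them, so that they can be carried into bile or urine. Hepatocytes are the main site of most of these enzymes in liver, while in human liver the pi-class glutathione transferase is well known from bile duct epithelium.

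The libraries held between 13833143 and 28468920 effective reads, recovered from the steps of low RPKM values. For a 2 kb gene 3 reads, an approximate upper limit on the expected count behind a listed 0, are worth 0.0527 to 0.108 RPKM. Such floors cover counting error alone, as PCR copies were not told apart by molecular identifiers. The 24 h library stood apart over all genes, with 8814 genes at 1 RPKM or more, against 10605 to 11263 in the other 7. The duct markers Spp1 and Krt18 were high in all 8 libraries, at 5841 to 17735 RPKM for Spp1 and 3746 to 6707 RPKM for Krt18. The sort marker Epcam stood at 513 to 1175 RPKM. The list of 22 duct markers summed to 31500 and 34160 RPKM in fresh cells, against 17310 to 25050 RPKM in culture. Of the 21 tested, 0 rose and 1 fell at 12 h, and 2 rose and 3 fell in organoids. The fall at 12 h was of Ggt1, which reached 1 RPKM in fresh cells only and so had to fall. Their median fitted difference from fresh cells was −1.04 at 12 h and −0.446 in organoids on the log2 scale.

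Hepatocyte markers were present as well. Their 30 genes summed to 3037 and 2686 RPKM in fresh cells, 572 and 522 RPKM at 12 h, 820.2 RPKM at 24 h, 1690 RPKM in the library titled 48h, and 399 and 248 RPKM in organoids. None of the 30 was at 0 in either fresh library, against 7 and 11 in the 12 h libraries, 13 in the 24 h library, 10 in the one titled 48h, and 15 and 11 in the organoid libraries. Of the 26 tested, 17 fell at 12 h, beside 3.72% of all genes, and 21 fell in organoids, beside 4.94%, and 0 rose in either. Serpina1a, Serpina1b, Apoc3, Fabp1, Hpd and Tdo2 reached 1 RPKM in fresh cells only, and Apoa1, Arg1, Mup3 and Vtn in only 1 cultured library. All of these needed a fresh value to be tested, so the counts are a description. Trf and Rbp4 were the highest of the 30 in organoid replicate 1, at 206 and 118 RPKM. Both stood above their fresh values there, which were 15.6 and 12.4 RPKM for Trf and 55.9 and 31.0 RPKM for Rbp4. In organoid replicate 2 they had 24.7 and 15.1 RPKM, and C3 was highest, at 105.7 RPKM, against 290 and 347 RPKM in fresh cells. Ambp, a plasma protein gene of hepatocytes, had 863 and 824 RPKM in fresh cells, 254 and 199.9 RPKM at 12 h and 1.08 and 64.1 RPKM in organoids. The 12 h difference of Ambp did not pass (limma, adjusted p = 0.435). Alb, the serum albumin gene, had 488 and 660.1 RPKM in fresh cells, 23.0 and 24.5 RPKM at 12 h and 0.0309 and 3.72 RPKM in organoids. In these bulk samples fewer hepatocytes and less RNA per cell cannot be told apart.

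Some markers of other cell types moved with the enzymes too. The 8 mesothelial markers summed to 55.1 and 57.2 RPKM in fresh cells, 37.9 and 48.5 RPKM at 12 h, 137 RPKM at 24 h, 419 RPKM in the library titled 48h, and 489 and 475 RPKM in organoids, and 2 of the 3 tested fell in both comparisons. These were Gpm6a, with at most 0.0148 RPKM at 12 h and in organoids, against 16.6 and 28.7 RPKM in fresh cells, and Nkain4, whereas Msln rose in organoids. Both Gpm6a and Nkain4 needed a fresh value to be tested, so their falls are a description. The 16 immune markers summed to no more than 223 RPKM in any cultured library, against 691 and 738 RPKM in fresh cells. Of the 4 tested, 2 fell at 12 h (Cd14 and Csf1r) and 1 in organoids (Cd14). Most of the sum was Cd14, and Cd68 had the next highest mean in fresh cells, though not in every library. The defining marker Ptprc stood at no more than 0.0143 RPKM in every library. The 12 endothelial markers summed to at most 2.51 RPKM in culture, against 5.94 and 5.55 RPKM in fresh cells. Eng and Clec4g were the highest of them in fresh cells. Eng fell at 12 h, but it too needed a fresh value to be tested. The 14 mesenchymal and stellate markers summed to 83.4 and 66.5 RPKM in fresh cells, 181 and 389 RPKM at 12 h, 443 RPKM at 24 h, 38.0 RPKM in the library titled 48h, and 0.620 and 14.7 RPKM in organoids. Nearly all of the sums at 12 h and 24 h came from Rgs5, with 178.5 and 388.8 RPKM at 12 h and 437.8 RPKM at 24 h. Of the 14 markers, 11 and 9 were listed at 0 in the 12 h libraries, against 2 in each fresh one. Rgs5 was also the highest of them in fresh cells, ahead of Dcn, and fell in organoids. The part of any of these cells in the enzyme results was not tested.

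Most of the enzyme genes were highest in fresh cells. The highest library was a fresh one for 43 of the 65 genes, a 12 h one for 7, the 24 h one for 2, the one titled 48h for 6 and an organoid one for 7. Of the 65, 60 and 52 genes reached 1 RPKM in fresh cells, 30 and 25 genes in the 12 h libraries, 15 genes in the 24 h library, which also had the fewest genes over the whole table, 36 genes in the one titled 48h, and 25 and 30 genes in organoids. There were 16 genes that reached 1 RPKM in fresh cells only, 10 that did so in all 8 libraries (Cyp4f13, Cyp20a1, Ugt1a7c, Gsta3, Gstm1, Gstm5, Gstp1, Gstt1, Gstt3 and Gsto1), and 4 that did so in no fresh library (Cyp1a1, Cyp1b1, Cyp2r1 and Cyp27b1). These counts follow from the levels that chose the genes, and are a description. Just inside the level rule stood Cyp2u1, Cyp46a1 and Cyp27a1, with second-highest libraries at 1.02, 1.03 and 1.05 RPKM, and just outside it Ugt1a1, Sult5a1 and Cyp21a1, at 0.766, 0.657 and 0.647 RPKM. Of the 109 family genes left out, 47 were at 0 in every library, and the highest single value was 10.1 RPKM.

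**Figure D1:**
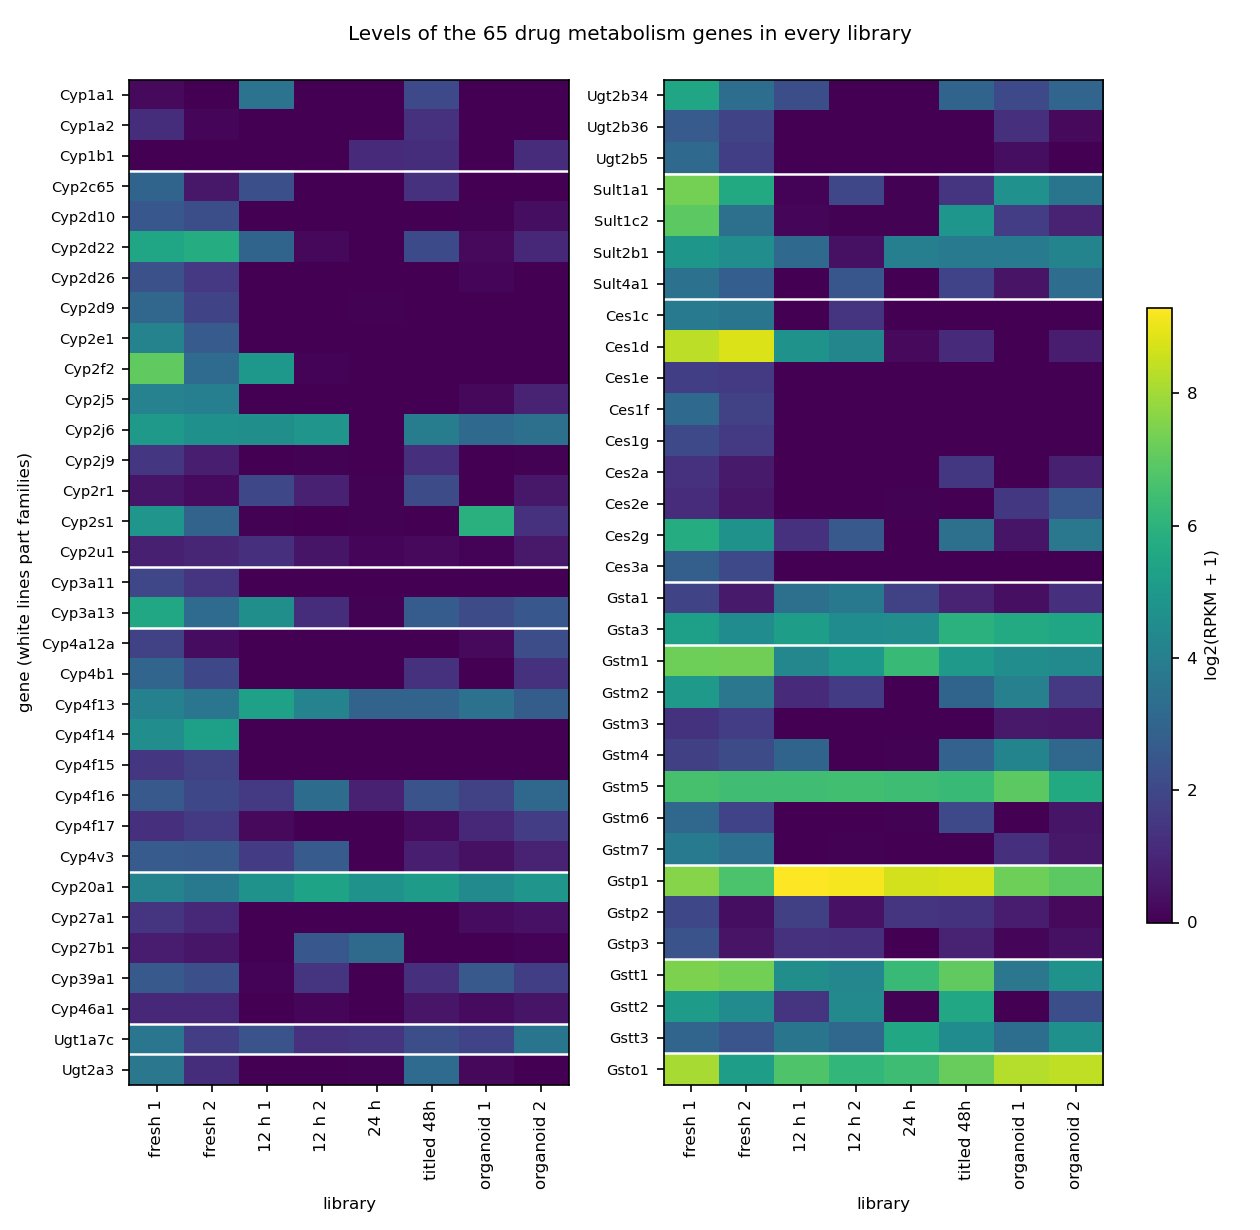
Level of each of the 65 genes in each of the 8 libraries, as log2(RPKM + 1) in colour, with libraries in culture order from left to right and white lines between families. The fresh columns are the brightest for most P450, carboxylesterase and conjugation genes, whereas Gstm5, Gstp1, Gsto1, Gsta3 and Cyp20a1 stay bright in every column.

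At 12 h, 24 of the 65 genes passed the test against fresh cells (limma on log2(RPKM + 1) over all 12900 genes, adjusted p under 0.05), 1 higher and 23 lower, and 40 had an unadjusted p under 0.05. Over all genes tested 6.81% passed in this comparison, 3.09% as higher and 3.72% as lower. In organoids 20 of the 65 passed against fresh cells, 0 higher and 20 lower, beside 10.1% of all genes (5.15% higher and 4.94% lower), and 34 had an unadjusted p under 0.05, of which 1 was higher. The 16 genes that entered the set only through their fresh level had to differ, so these counts are a description, and no p-value is given for those 16. They held 14 of the 24 calls at 12 h and 13 of the 20 in organoids, which leaves 10 of 49 and 7 of 49 among the other genes. Among those, Ces1c, Gstm6, Gstm7 and Ugt2b36 reached 1 RPKM in only 1 cultured library. They too needed a fresh value to enter, so their calls are likewise a description. The calls left were of Gstp1, Sult1a1, Sult1c2, Ces1d, Gstm1 and Gstt1 at 12 h, and of Cyp2d22, Ces1d, Gstm1 and Gstt1 in organoids. No excess over the 6.81% and 10.1% of all genes is read from these few. The median fitted difference of the 65 genes was −1.63 at 12 h and −1.54 in organoids on the log2 scale, where all genes tested had medians of 0.24 and 0.17. Both comparisons use the same fresh libraries. With them, 19 genes passed as lower in both, 13 of which had entered through fresh cells alone. A further 4 passed at 12 h and not in organoids (Sult1a1, Sult1c2, Ugt2b36 and Gstm3, of which Gstm3 entered through fresh cells alone). In organoids and not at 12 h 1 passed (Cyp2d22). Whether these 5 differed between 12 h and organoids is a separate comparison, in which none of them passed.

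The calls rest on few libraries. Without either fresh library 0 of 12900 genes passed by limma in either comparison, with 33 and 37 of the 65 genes at an unadjusted p under 0.05 at 12 h, and 28 and 35 in organoids. The 12 h count was 0 without 12 h replicate 1 (38 unadjusted), 4 without 12 h replicate 2, and 16 and 15 without organoid replicates 1 and 2. The organoid count was 3 without organoid replicate 1 and 12 without organoid replicate 2. Every call of a single gene against fresh cells therefore ends when either fresh library is left out, where the lone remaining library is assumed to vary like the other groups. Among the genes given with all their values, no result under an adjusted p of 0.1 changed direction under any alternative run.

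**Figure D2:**
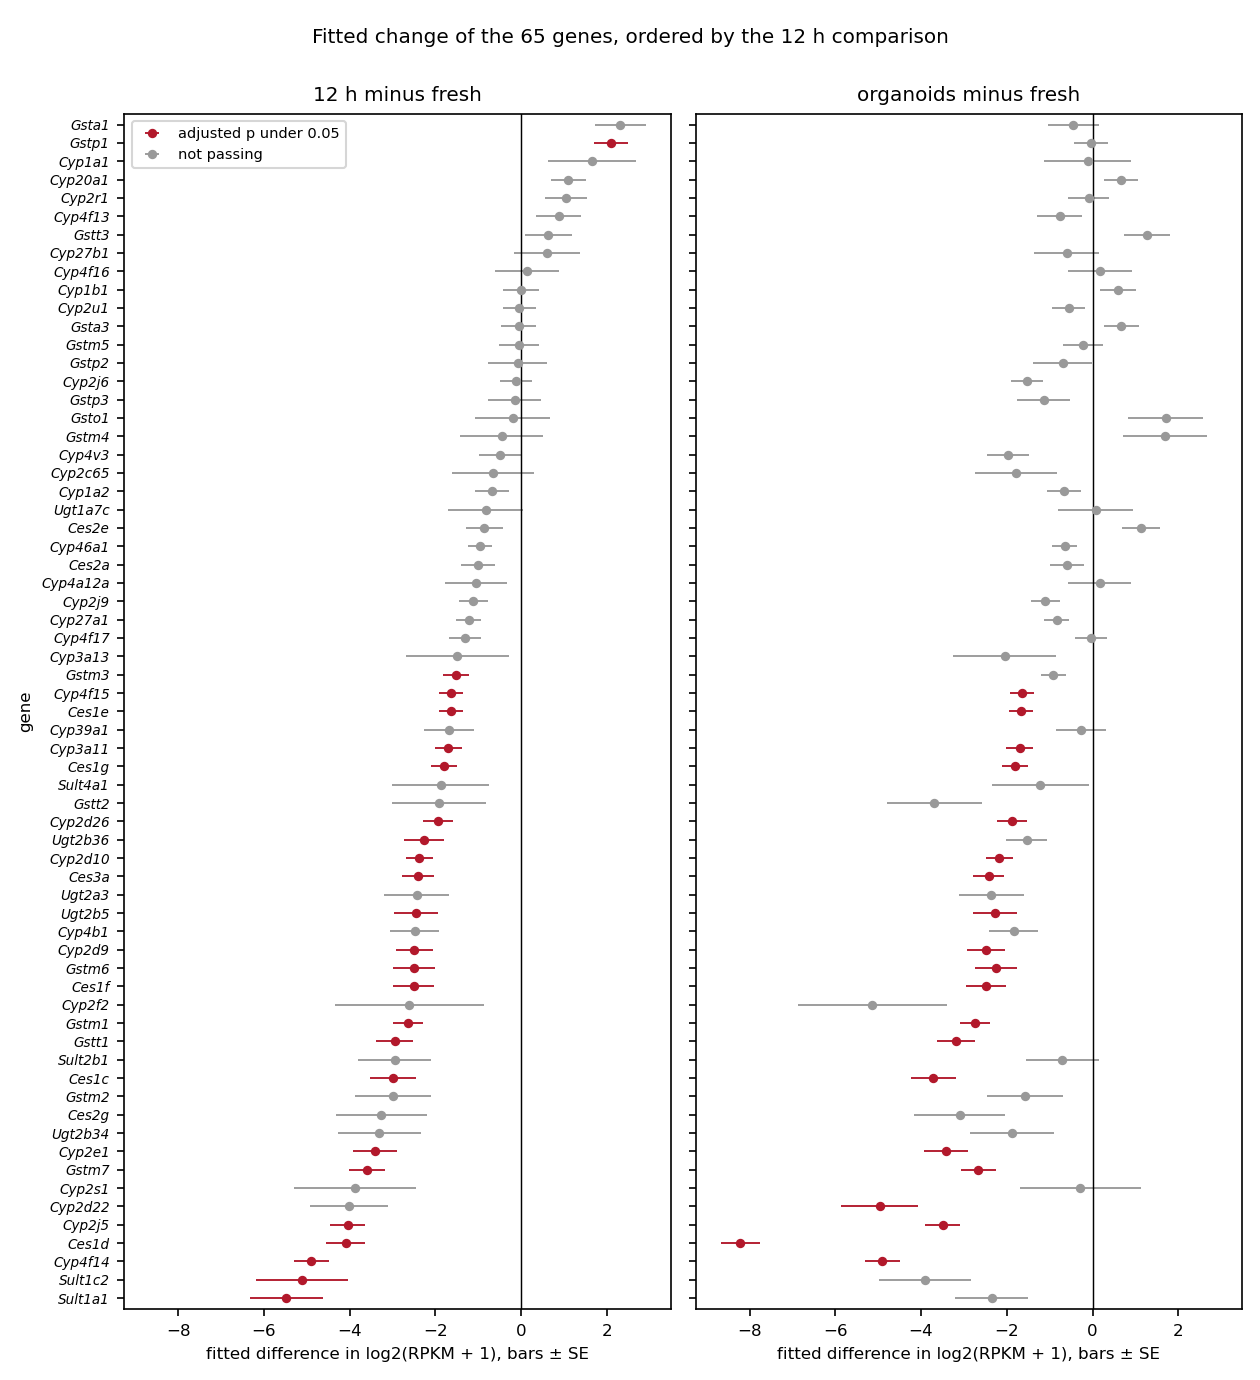
Fitted difference in log2(RPKM + 1) of each of the 65 genes for 12 h minus fresh cells (left) and organoids minus fresh cells (right), with bars of 1 SE, in red where the adjusted p was under 0.05. Only Gstp1 passed above 0, at 12 h, and Ces1d lies farthest below 0 in organoids.

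Of the 31 P450 genes 8 passed at 12 h and 9 in organoids by limma, all as lower than fresh cells. All 8 at 12 h and 8 of the 9 in organoids are among the genes that entered through fresh cells alone, so their direction was fixed by the choice of genes, and Cyp2d22 in organoids was the exception. An unadjusted p under 0.05 was reached by 17 and 15 of them. The passing genes were all of the Cyp2, Cyp3 and Cyp4 families, and none of the 3 Cyp1 genes or the 5 longer-numbered ones passed (0 and 4 at an unadjusted p under 0.05 at 12 h, 0 and 1 in organoids). The 96 annotated P450 genes of these families summed to 462 and 224 RPKM in fresh cells, 173 and 111 RPKM at 12 h, 60.0 RPKM at 24 h, 84.5 RPKM in the library titled 48h, and 112 and 74.8 RPKM in organoids.

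Cyp4f14, an omega-hydroxylase of leukotrienes and other fatty acids, was near 0 in every cultured library. It lies at chr17:32905070-32917342 (GRCm38) and had 0.0199 and 0.0191 RPKM at 12 h and 0 and 0.0206 RPKM in organoids, against 22.8 and 37.5 RPKM in fresh cells. The values in culture are of the order of single reads, including 0.0217 RPKM at 24 h and a listed 0 in the library titled 48h, and no cultured library came near a fresh one. The fitted difference was −4.89 ± 0.41 (SE) at 12 h and −4.91 ± 0.41 in organoids on the log2 scale. Cyp4f15, of the same cluster, stood at no more than 0.0209 RPKM in culture, against 1.78 and 2.51 RPKM in fresh cells. Both genes entered the set through fresh cells alone.

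Cyp4f13, of the same chromosome 17 group, did not pass in any comparison. It had 15.8 and 11.7 RPKM in fresh cells, 39.2 and 17.0 RPKM at 12 h, 6.71 RPKM at 24 h, 6.87 RPKM in the library titled 48h, and 10.01 and 5.67 RPKM in organoids. Both 12 h libraries were above both fresh ones, and both organoid libraries below them. The 5 Cyp4f genes of the set lie within 441 kb, of which Cyp4f13, Cyp4f16 and Cyp4f17 passed in no comparison.

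Cyp2j5, which makes epoxides of arachidonic acid, had 0 and 0.0196 RPKM at 12 h and 0.154 and 0.886 RPKM in organoids, against 16.3 and 15.0 RPKM in fresh cells, with a listed 0 at 24 h and 0.0195 RPKM in the library titled 48h. Every cultured library was below both fresh ones, which lay close together. The fitted difference was −4.04 ± 0.40 at 12 h and −3.49 ± 0.40 in organoids, in a gene that entered through fresh cells alone. Cyp2j6, of the same chromosome 4 cluster, had 23.5 and 27.6 RPKM at 12 h and 8.06 and 9.86 RPKM in organoids, against 31.5 and 24.4 RPKM in fresh cells. The 12 h and fresh values of Cyp2j6 overlapped and the organoid ones lay below, at a fitted difference of −1.53 ± 0.38 that did not pass (adjusted p = 0.0507). Cyp2j6 was listed at 0 at 24 h and had 13.8 RPKM in the library titled 48h.

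Cyp2e1, the P450 that oxidises ethanol and paracetamol, had 0.0250 RPKM in the library titled 48h and was at 0 in the other 5 cultured ones, against 16.8 and 5.40 RPKM in fresh cells. Cyp3a11, the chief CYP3A enzyme of mouse hepatocytes, was listed at 0 in all 6 cultured libraries, against 2.95 and 1.67 RPKM in fresh cells. The fitted difference was −3.41 ± 0.51 for Cyp2e1 and −1.70 ± 0.31 for Cyp3a11, the same value at 12 h and in organoids for each. Both are known as hepatocyte enzymes, and both entered through fresh cells alone.

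Cyp2d22, of the family that handles many amine drugs in mammals, had the highest level of the Cyp2d genes. It had 0.183 and 1.07 RPKM in organoids, against 42.9 and 53.7 RPKM in fresh cells, and both organoid values were below all fresh ones. The fitted difference was −4.97 ± 0.91, with an adjusted p of 0.0243 that became 0.0652 at a pseudocount of 0.1. At 12 h the libraries had 7.05 and 0.149 RPKM, both below fresh cells but far apart, and the difference of −4.01 ± 0.91 did not pass (adjusted p = 0.0503). At 24 h it had 0.0188 RPKM and in the library titled 48h 3.25 RPKM, also below fresh cells. Cyp2d9, Cyp2d10 and Cyp2d26, which lie with Cyp2d22 within 424 kb of chromosome 15, entered through fresh cells alone, with at most 0.270 RPKM in culture, against 1.94 to 7.46 RPKM there. Over Cyp2d9 and Cyp2d10 more than 20% of 50-base windows also occur in another gene, so their reads may be split or shared.

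Other P450 genes differed widely between the libraries of 1 group. Cyp2f2, known for activating naphthalene in the mouse airway, had 129.7 and 8.53 RPKM in fresh cells, 30.2 and 0.0682 RPKM at 12 h, and was listed at 0 in the other 4 libraries. Cyp3a13 had 46.5 and 8.41 RPKM in fresh cells, 23.6 and 1.32 RPKM at 12 h, 0.0352 RPKM at 24 h, 5.52 RPKM in the library titled 48h, and 3.47 and 4.82 RPKM in organoids. Neither gene passed in any comparison, and for both the 12 h and fresh libraries overlapped.

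The Cyp1 genes, which oxidise planar aromatic compounds and are the classical targets of the aryl hydrocarbon receptor, were low. Cyp1a1 had 0.175 RPKM and 0 in fresh cells, 10.6 RPKM and 0 at 12 h, 0.0199 RPKM at 24 h, 3.17 RPKM in the library titled 48h, and was listed at 0 in both organoid libraries. A single 12 h library and the one titled 48h therefore carried it. Cyp1b1 had 0 and 0.0137 RPKM in fresh cells, 0 in both 12 h libraries, 1.16 RPKM at 24 h, 1.32 RPKM in the library titled 48h, and 0.0141 and 1.29 RPKM in organoids. Neither gene passed in any comparison.

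Of the longer-numbered genes Cyp20a1, a P450 without an assigned substrate, was above 10 RPKM in every library. It had 16.7 and 12.7 RPKM in fresh cells, 25.6 and 41.3 RPKM at 12 h, 26.5 RPKM at 24 h, 33.8 RPKM in the library titled 48h, and 20.1 and 27.9 RPKM in organoids. All 6 cultured libraries were above both fresh ones, yet no comparison passed. Cyp39a1, an oxysterol hydroxylase of bile acid synthesis, had 5.02 and 3.77 RPKM in fresh cells, 0.0625 and 1.63 RPKM at 12 h, 0 at 24 h, 1.44 RPKM in the library titled 48h, and 4.996 and 2.27 RPKM in organoids, and its organoid and fresh values overlapped.

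Of the 9 carboxylesterases 6 passed as lower at 12 h and 6 in organoids. In each comparison 4 of these (Ces1e, Ces1f, Ces1g and Ces3a) entered through fresh cells alone and had to differ, which leaves Ces1c and Ces1d. Ces1c also needed a fresh value to enter, as only 1 cultured library reached 1 RPKM. The 19 family genes together had 420 and 501 RPKM in fresh cells, 27.6 and 25.1 RPKM at 12 h, 0.214 RPKM at 24 h, 13.0 RPKM in the library titled 48h, and 2.33 and 18.9 RPKM in organoids. A single gene, Ces1d, made up 78.4% and 90.5% of that sum in fresh cells.

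Ces1d hydrolyses retinyl esters and triacylglycerol as well as ester drugs, and lies at chr8:93166068-93197838 (GRCm38) on the minus strand. It had 329.5 and 453 RPKM in fresh cells, 26.1 and 18.2 RPKM at 12 h, 0.176 RPKM at 24 h, 1.195 RPKM in the library titled 48h, and 0 and 0.689 RPKM in organoids. Every 12 h library was below every fresh one and above every later one. At 12 h the mean was 22.1 ± 5.6 RPKM, against 391 ± 87 RPKM in fresh cells (SD, n = 2 each), 17.7-fold lower, with a fitted difference of −4.09 ± 0.45 and an adjusted p of 0.0189. In organoids the fitted difference from fresh cells was −8.22 ± 0.45 (adjusted p = 0.00426), the farthest of all 65 genes. Against 12 h, organoids were lower by a fitted −4.13 ± 0.45 (adjusted p = 0.0211). This was the only one of the 65 genes to pass between organoids and 12 h, where 2% of all genes passed (1.38% higher and 0.62% lower) and 12 of the 65 had an unadjusted p under 0.05. The call between organoids and 12 h held without organoid replicate 2 (adjusted p = 0.0439) and ended without each of the other 5 grouped libraries, at adjusted p between 0.0539 and 0.177, with no filter on low values (0.0918) and with only the 2 groups compared in the fit (0.186). No more than 1.08% of the 50-base windows of Ces1d occur elsewhere.

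The other Ces1 genes lie with Ces1d within 238 kb of chromosome 8. Ces1c, a carboxylesterase that mice secrete into plasma, had 0 and 1.72 RPKM at 12 h and was listed at 0 in both organoid libraries and both lone ones, against 13.1 and 11.2 RPKM in fresh cells. All 6 cultured libraries were below both fresh ones. It fell by 2.99 ± 0.53 at 12 h and by 3.71 ± 0.53 in organoids on the log2 scale. As Ces1c needed a fresh value to enter, no p-value is given. Ces1e, Ces1f, Ces1g and Ces3a had no more than 0.0241 RPKM in any cultured library, against 1.97 to 8.06 RPKM in fresh cells.

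The Ces2 genes, which favour esters with a large alcohol group, had no call. Ces2g had 52.5 and 25.4 RPKM in fresh cells, 1.503 and 5.12 RPKM at 12 h, 0 at 24 h, 9.92 RPKM in the library titled 48h, and 0.455 and 12.2 RPKM in organoids. All cultured libraries of Ces2g were below both fresh ones, but organoid replicates stood far apart. Ces2e was listed at 0 in both 12 h libraries and had 1.85 and 4.55 RPKM in organoids, and the fitted difference of 1.99 ± 0.44 between them did not pass (adjusted p = 0.0744).

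**Figure D3:**
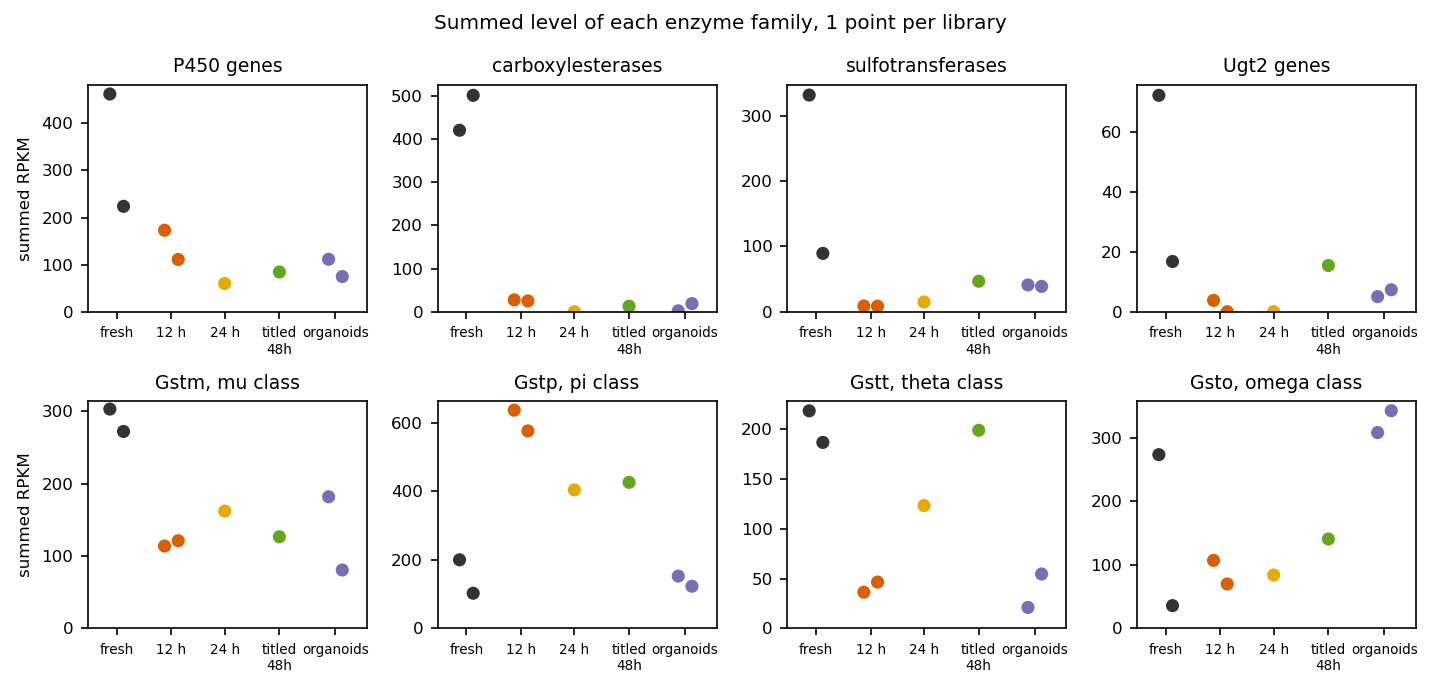
Summed RPKM of all annotated protein-coding genes of each family, 1 point per library, in culture order, with the left-out alpha-class gene in no panel. Carboxylesterases, sulfotransferases and Ugt2 genes stand highest in fresh cells, Gstp in the 12 h, 24 h and titled 48h libraries, and Gsto in organoids.

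Among the conjugating enzymes, the glucuronosyltransferases had 2 of 5 genes lower at 12 h and 1 of 5 lower in organoids, with 4 and 3 at an unadjusted p under 0.05. The passing genes were Ugt2b5 in both comparisons and Ugt2b36 at 12 h. Ugt2b36 needed a fresh value to enter, as only 1 cultured library reached 1 RPKM. Ugt2b5 entered through fresh cells alone, at 8.08 and 2.31 RPKM, and 41.7% of its windows occur in other genes, most of them in Ugt2b38. The 4 Ugt2 genes lie within 447 kb of chromosome 5.

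Ugt2b34 had the highest level of the Ugt2 genes, with 44.2 and 9.18 RPKM in fresh cells, 3.68 and 0.0107 RPKM at 12 h, 0 at 24 h, 6.88 RPKM in the library titled 48h, and 3.19 and 7.18 RPKM in organoids. Every cultured library lay below both fresh ones, and the 12 h difference of −3.30 ± 0.98 did not pass (adjusted p = 0.0912). Ugt2a3 had 11.95 and 1.31 RPKM in fresh cells, 0 and 0.0217 RPKM at 12 h, 0.0492 RPKM at 24 h, 8.54 RPKM in the library titled 48h, and 0.137 RPKM and 0 in organoids, so that a single cultured library lay within the fresh range. Ugt1a7c was the only Ugt1 gene of the set. It had 11.5 and 2.26 RPKM in fresh cells, 4.21 and 1.49 RPKM at 12 h, 1.60 RPKM at 24 h, 3.68 RPKM in the library titled 48h, and 2.69 and 11.2 RPKM in organoids. The groups overlapped, and 53.7% of its windows are shared, mostly with Ugt1a6a, since Ugt1 genes use common last exons.

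The sulfotransferases had 2 of 4 genes lower at 12 h and, by limma, 0 of 4 in organoids, where 2 had an unadjusted p under 0.05. Sult1a1, which sulfates small phenols, had 0.0634 and 2.90 RPKM at 12 h, against 162 and 49.5 RPKM in fresh cells. The groups did not overlap, and Sult1a1 fell by 5.48 ± 0.85 on the log2 scale (adjusted p = 0.0279). It had 24.8 and 11.1 RPKM in organoids, above the 12 h, 24 h and titled 48h libraries and below both fresh ones, and neither comparison of organoids passed. The 24 h library had 0.0346 RPKM and the one titled 48h 1.73 RPKM.

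Sult1c2 had 0.103 and 0.0499 RPKM at 12 h, against 124 and 9.93 RPKM in fresh cells. It fell by 5.10 ± 1.07 on the log2 scale (adjusted p = 0.0437), although the fresh libraries differed from each other by more than a factor of 10. The 24 h library had 0.0282 RPKM, but the one titled 48h had 28.4 RPKM, above the lower fresh library. Without fresh replicate 1, the higher one, the fitted difference was −3.34 (adjusted p = 0.160), and the calls of Sult1a1 and Sult1c2 ended without any 1 of the 6 grouped libraries, at adjusted p up to 0.216 and 0.160. In organoids Sult1c2 had 2.23 and 0.884 RPKM, and the difference of −3.91 ± 1.07 did not pass (adjusted p = 0.0668). Sult2b1, a sulfotransferase of cholesterol, had 29.5 and 22.4 RPKM in fresh cells, 7.99 and 0.324 RPKM at 12 h, 15.0 RPKM at 24 h, 13.0 RPKM in the library titled 48h, and 13.5 and 17.5 RPKM in organoids, and passed in no comparison.

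Glutathione transferases made up a larger share of the summed enzyme RPKM in culture, while their own sum in every cultured library lay between the 2 fresh values. They summed to 1036 and 619.9 RPKM in fresh cells, 939.8 and 849 RPKM at 12 h, 798 RPKM at 24 h, 953 RPKM in the library titled 48h, and 714 and 646 RPKM in organoids. Their share of the summed RPKM of all families was 44.4% and 42.6% in fresh cells, 81.2% and 85.2% in the 12 h libraries, 91.2% in the 24 h library, 85.4% in the one titled 48h, and 81.4% and 80.9% in the organoids. The sum of all families was 2335 and 1454 RPKM in fresh cells, 1157 and 996 RPKM at 12 h, 876 RPKM at 24 h, 1117 RPKM in the library titled 48h, and 878 and 798 RPKM in organoids. At 12 h 1 of the 16 genes was higher and 5 were lower, and in organoids 0 were higher and 4 lower, with 8 and 6 at an unadjusted p under 0.05.

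Gstp1, the pi-class transferase that scavenges electrophiles, was the most abundant gene of the set in the 4 libraries between fresh cells and organoids and the only one that rose. It had 633 and 575 RPKM at 12 h, against 193 and 102 RPKM in fresh cells. The means were 604 ± 41 RPKM and 147 ± 64 RPKM (SD, n = 2 each), 4.10-fold higher at 12 h, and the fitted difference was 2.098 ± 0.403 (adjusted p = 0.0367). The 24 h library had 402 RPKM and the one titled 48h 424 RPKM, both between the 12 h and fresh values. Organoids had 152 and 122 RPKM, within the range of fresh cells and below every other cultured library. Between organoids and 12 h the fitted difference was −2.14 ± 0.40, which did not pass (adjusted p = 0.0576). The 12 h call is a narrow one. It ended when library medians were centred (fitted 1.77, adjusted p = 0.0665), with no filter on low values (0.0903), with only the 2 groups compared in the fit (0.0502), with no variance trend (0.0526) and without any 1 of the 6 grouped libraries, at adjusted p between 0.0511 and 0.264, with the fitted difference between 1.64 and 2.56.

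Gstp1 also shares 33.7% of its 50-base windows, all with Gstp2, which lies beside it on chromosome 19 together with Gstp3, within 24.2 kb. Gstp2 was far lower, at 0.193 to 3.06 RPKM in the 8 libraries, with 2.42 and 0.359 RPKM at 12 h, against 3.06 and 0.274 RPKM in fresh cells. At 24 h there were 1.62 RPKM of Gstp2, with 1.54 RPKM in the library titled 48h, and 0.657 and 0.193 RPKM in organoids. Gstp2 did not separate any groups. Gstp1 alone made up 54.7% and 57.7% of the summed RPKM of all families at 12 h, against 8.26% and 6.996% in fresh cells, and 17.3% and 15.3% in organoids.

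The mu-class genes share 149 kb of chromosome 3, with 7 genes in the set, 4 of them lower at 12 h and 3 lower in organoids. Gstm1 had 18.8 and 29.9 RPKM at 12 h and 22.9 and 20.99 RPKM in organoids, against 149.5 and 156 RPKM in fresh cells. The groups did not overlap, and the levels were 6.27-fold and 6.97-fold lower at 12 h and in organoids. The fitted differences were −2.63 ± 0.35 (adjusted p = 0.0239) and −2.75 ± 0.35 (adjusted p = 0.0119). The 24 h library had 78.2 RPKM and the one titled 48h 31.1 RPKM.

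Gstm5, of the same cluster, had 86.7 and 89.04 RPKM at 12 h and 124 and 48.8 RPKM in organoids, against 96.6 and 86.5 RPKM in fresh cells. The 12 h values lay within the fresh ones and the organoid values on either side of them, and the 24 h and titled 48h libraries had 83.8 and 78.6 RPKM. The difference of Gstm5 from fresh cells did not pass, and the contrast between Gstm1 and Gstm5 within 1 cluster was not itself tested. Gstm7 had 0 and 0.0287 RPKM at 12 h and 1.44 and 0.525 RPKM in organoids, against 13.3 and 9.41 RPKM in fresh cells, and was listed at 0 in both lone libraries. It fell by 3.59 ± 0.42 at 12 h and by 2.66 ± 0.42 in organoids on the log2 scale. As Gstm7 needed a fresh value to enter, no p-value is given. Gstm6, which also needed a fresh value to enter, fell in both comparisons. Gstm3, which entered through fresh cells alone, was at 0 in each 12 h library, against 1.55 and 2.22 RPKM in fresh cells.

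The promoter sequences of the gene that rose and of 2 mu-class genes of 1 cluster with unlike courses are printed so that their letters can be set beside the values. They come from RefSeq on GRCm38.p6 and run from 250 bases before the start of transcription to 50 bases after it, 5′ to 3′ on the strand of the gene. Capitals mark matches, on either strand, to TGACNNNGC (the core of the antioxidant response element), TGACTCA (the AP-1 element), GCGTG (the core of the element bound by the aryl hydrocarbon receptor) or TATAAA. Gstp1 lies at chr19:4037863-4038162 on the minus strand, Gstm1 at chr3:108017769-108018068 on the minus strand, the second of 2 starts listed, and Gstm5 at chr3:107895604-107895903 on the plus strand.
Gstp1: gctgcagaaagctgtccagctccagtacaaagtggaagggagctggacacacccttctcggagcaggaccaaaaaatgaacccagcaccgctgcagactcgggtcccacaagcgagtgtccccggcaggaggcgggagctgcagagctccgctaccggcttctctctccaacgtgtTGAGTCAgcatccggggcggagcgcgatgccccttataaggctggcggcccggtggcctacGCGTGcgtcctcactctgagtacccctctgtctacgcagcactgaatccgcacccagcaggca
Gstm1: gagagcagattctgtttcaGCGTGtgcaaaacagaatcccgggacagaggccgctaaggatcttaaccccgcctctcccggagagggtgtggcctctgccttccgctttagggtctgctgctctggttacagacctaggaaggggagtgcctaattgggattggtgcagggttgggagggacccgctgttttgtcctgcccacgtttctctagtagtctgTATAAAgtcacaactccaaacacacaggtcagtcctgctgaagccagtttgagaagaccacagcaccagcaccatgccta
Gstm5: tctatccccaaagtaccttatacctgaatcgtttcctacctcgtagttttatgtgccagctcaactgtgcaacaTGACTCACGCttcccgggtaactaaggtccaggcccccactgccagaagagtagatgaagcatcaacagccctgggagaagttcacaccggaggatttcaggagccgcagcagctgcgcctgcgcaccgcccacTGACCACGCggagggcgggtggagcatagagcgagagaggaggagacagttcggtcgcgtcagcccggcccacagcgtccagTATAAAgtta

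The Gstp1 window holds TGACTCA on the minus strand at positions -74 to -68 from the start, and GCGTG at -13 to -9. The Gstm1 window holds GCGTG far upstream and TATAAA at -30 to -25. In the Gstm5 window TGACNNNGC stands at -42 to -34 and TGACTCA at -176 to -170. Each of these overlaps a GCGTG match on the minus strand, so that the capitals run together, and TATAAA stands after the start. RefSeq windows were matched for 55 of the 65 genes. TGACTCA was found in 6 of the 55 (Cyp3a13, Cyp4f16, Gstm5, Gstp1, Gstp2 and Sult2b1), beside 5.2% of all 32851 promoters of that length. TGACNNNGC was found in 6 of 55, beside 12.4% of all, GCGTG in 15 of 55, beside 32.4%, and TATAAA in 13 of 55, beside 13.6%. These counts are of genes with a match in any of their windows, whereas the shares of all promoters are of single windows. Over the 65 windows of the 55 genes, 9.23% held TGACTCA, 9.23% TGACNNNGC, 26.2% GCGTG and 20% TATAAA. A match is a string of letters and not a measured site.

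Theta-class genes differed among themselves. Gstt1, which acts on small halogenated compounds, had 23.4 and 18.9 RPKM at 12 h and 11.7 and 26.4 RPKM in organoids, against 177 and 161 RPKM in fresh cells. It was 7.98-fold lower at 12 h (fitted −2.94 ± 0.43, adjusted p = 0.0264) and 8.85-fold lower in organoids (fitted −3.18 ± 0.43, adjusted p = 0.0132). The lone libraries stood higher, at 76.6 RPKM at 24 h and 131 RPKM in the library titled 48h. Gstt3, of the same chromosome 10 cluster, had 11.1 and 7.88 RPKM at 12 h and 9.22 and 24.3 RPKM in organoids, against 7.09 and 4.49 RPKM in fresh cells. Every cultured library of Gstt3, including 46.6 RPKM at 24 h and 21.9 RPKM in the library titled 48h, was above both fresh ones, but no comparison passed.

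Gsto1, the omega-class enzyme that reduces dehydroascorbate and mixed disulfides, showed how far libraries of a group can part. It had 273 and 35.4 RPKM in fresh cells, 107 and 69.6 RPKM at 12 h, 84.0 RPKM at 24 h, 141 RPKM in the library titled 48h, and 308 and 343 RPKM in organoids. Organoids were the highest of all libraries, and the wide fresh pair spanned the other cultured values, so that no comparison passed.

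The alpha-class Gsta3, which in mice detoxifies the epoxide of aflatoxin, was among the steady genes. It had 37.3 and 22.2 RPKM in fresh cells, 35.0 and 21.9 RPKM at 12 h, 22.7 RPKM at 24 h, 60.3 RPKM in the library titled 48h, and 49.96 and 43.1 RPKM in organoids. Both organoid libraries were above both fresh ones, without passing. Gsta1 had 9.74 and 12.7 RPKM at 12 h, against 2.74 and 0.588 RPKM in fresh cells, and 0.302 and 1.45 RPKM in organoids, with 2.56 RPKM at 24 h and 0.860 RPKM in the library titled 48h. The 12 h libraries were above all others, but neither the difference from fresh cells of 2.32 ± 0.59 (adjusted p = 0.0644) nor that of organoids from 12 h of −2.76 ± 0.59 (adjusted p = 0.0704) passed, and 90.5% of the windows of Gsta1 occur in other genes.

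**Figure D4:**
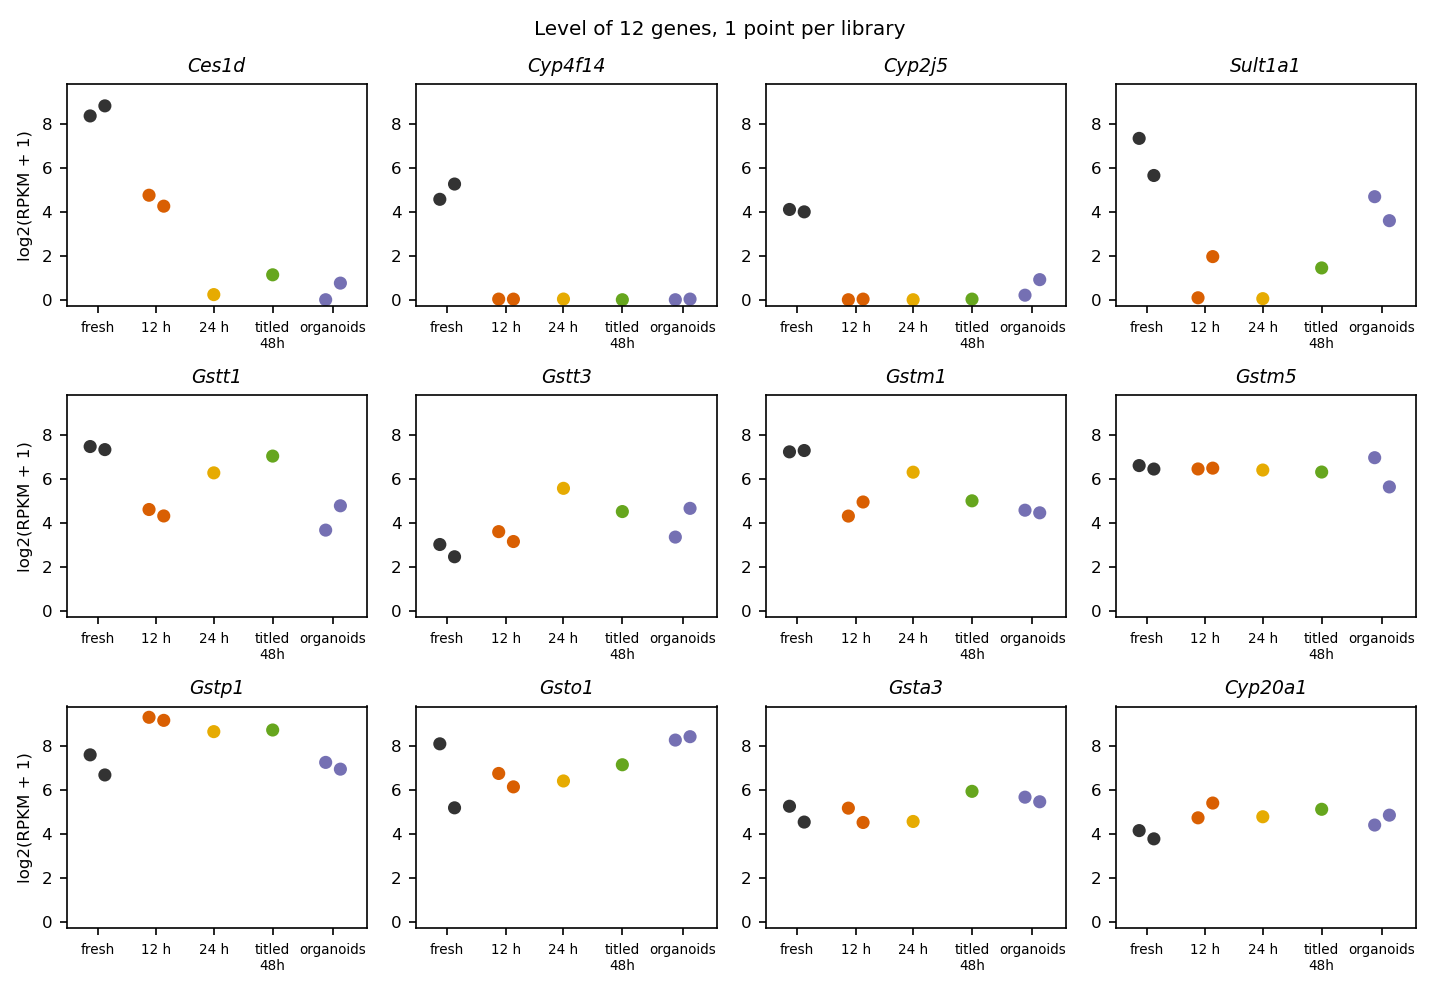
Level of 12 genes in each library as log2(RPKM + 1), 1 point per library, in culture order. Ces1d steps down from fresh cells through 12 h to organoids, Cyp4f14 and Cyp2j5 are near 0 in every cultured library, Gstp1 is highest at 12 h, and Gstm5 stays level beside Gstm1.

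The fresh libraries parted on these genes in 1 direction. Of the 36 genes that averaged 5 RPKM or more in fresh cells, 17 (47.2%) differed more than 2-fold between the 2 fresh libraries, and all 17 were higher in replicate 1. Over all tested genes at that level 6.32% of 6393 did so, 324 higher in replicate 1 and 80 in replicate 2. The share over 2-fold was 6 of 17 genes (35.3%) at 12 h, beside 23.6% of all genes, and 11 of 19 (57.9%) in organoids, beside 38.4%. Most of the 30 hepatocyte markers were also higher in fresh replicate 1, such as Apoa1, at 103 RPKM, against 39.4 RPKM in replicate 2. The others (Alb, Apob, Fgg, Tat, Arg1, Hpd, C3 and Vtn) were lower in replicate 1. The part of hepatocyte RNA in the gap was not tested.

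**Figure D5:**
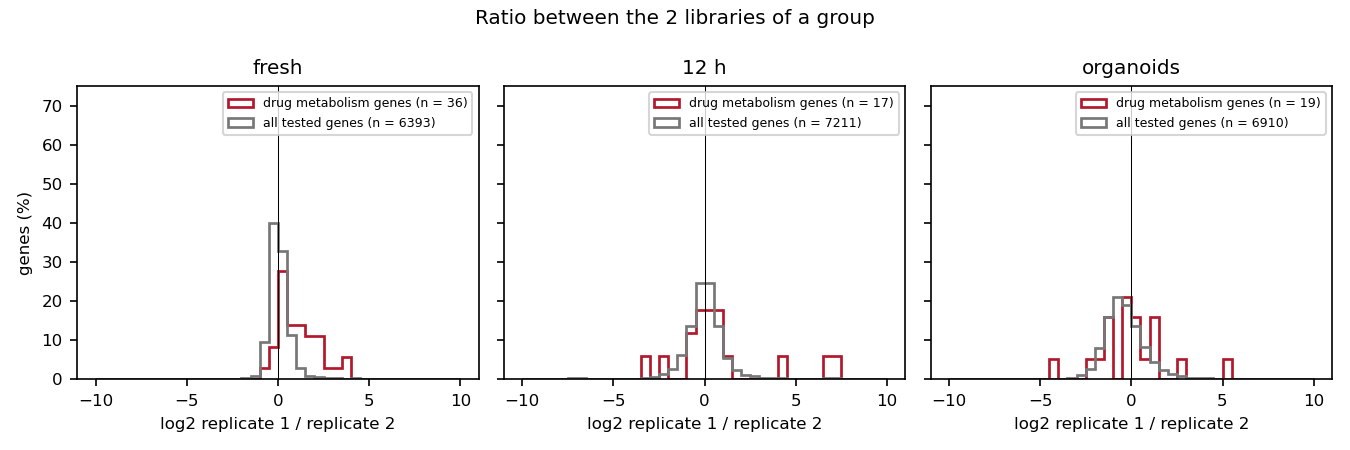
Distribution of the log2 ratio between the 2 libraries of a group for drug metabolism genes (red) and all tested genes (grey) averaging 5 RPKM or more in the group, in fresh cells, at 12 h and in organoids. In fresh cells the red distribution extends to the right, where replicate 1 is higher, and the grey one is centred near 0.

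Genes around these enzymes were followed by lists from common knowledge. Of 13 tested regulators of xenobiotic genes 2 fell and 0 rose at 12 h, and the same 2 fell in organoids. They were Nr1i2, the pregnane X receptor, listed at 0 in all 6 cultured libraries against 2.95 and 2.02 RPKM in fresh cells, and Nr1h4, the bile acid receptor. Nr1h4 had 0.974 and 0.739 RPKM at 12 h and 1.004 and 0.730 RPKM in organoids, against 12.2 and 6.83 RPKM in fresh cells. Nr1i2 fell by 1.79 ± 0.29 on the log2 scale in each comparison. It reached 1 RPKM in fresh cells only, so its direction was fixed and no p-value is given. Nr1h4 fell by 2.46 ± 0.45 at 12 h and by 2.45 ± 0.45 in organoids (limma, adjusted p = 0.0352 and 0.0245).

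Of 24 tested oxidising, reducing and hydrolysing enzymes of other families, 1 rose and 5 fell at 12 h, and 1 rose and 6 fell in organoids. The 5 falls at 12 h were of Fmo2, Adh1, Aldh1a7, Aldh1b1 and Maob, which all needed a fresh value to be tested. The farthest falls in organoids were of Fmo2, a flavin monooxygenase (−4.22 ± 0.39), Aldh1a1, a retinal dehydrogenase (−4.11 ± 0.53, limma, adjusted p = 0.0119), and Maob, a monoamine oxidase (−3.64 ± 0.35). As Fmo2 and Maob needed a fresh value, no p-value is given for them. The rise at 12 h was of Nqo1, a quinone reductase and known target of the oxidative stress response, chosen after its values were seen. Nqo1 had 23.8 and 41.9 RPKM at 12 h, against 1.82 and 3.099 RPKM in fresh cells, and fell back to 0.0465 and 2.36 RPKM in organoids. The difference was 3.26 ± 0.66 for 12 h against fresh cells (adjusted p = 0.0407) and −4.12 ± 0.66 for organoids against 12 h (adjusted p = 0.0391).

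Among the 10 other conjugating enzymes tested, Inmt, a methyltransferase of amines, fell in both comparisons. Nat2, an arylamine acetyltransferase, rose in organoids by 2.04 ± 0.35 on the log2 scale. Inmt reached 1 RPKM in fresh cells only and Nat2 in organoids only, so their directions were fixed and no p-value is given. Of 17 genes for cofactors 0 passed at 12 h. In organoids Slc35b2, the Golgi carrier of activated sulfate, rose by 2.07 ± 0.40 (adjusted p = 0.0278) and Por, which passes electrons to the P450 enzymes, fell by 1.89 ± 0.40 (adjusted p = 0.0360) on the log2 scale. Of 7 drug transporters tested, Abcb1a, an efflux pump of the apical membrane, fell in organoids by 3.95 ± 0.51 (adjusted p = 0.0119), and Abcc4, an efflux pump chosen after its values were seen, rose at 12 h by 1.96 ± 0.43 (adjusted p = 0.0472).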

How the data were processed

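RPKM values per gene and library were deposited by the authors in 1 table of 8 libraries. Per the labels' protocols, column-extracted RNA was copied by Smart-seq2 and tagmented with Nextera XT. Per the submitters' processing notes the genome was GRCm38 and edgeR was used, with aligner, counter, annotation and strand use not given in the sources used here. Symbols, coordinates and exon lengths came from GENCODE M21, which named 47310 identifiers and left 419 unnamed. Low values were whole multiples of 1 read, within 0.01, for 88.2% to 91.1% of cases, which gave the effective depth.

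The 12900 genes at 1 RPKM or more in 2 or more libraries were fitted by limma 3.58.1 in R 4.3.3 on log2(RPKM + 1), without further scaling, with 1 coefficient for each of 5 groups, moderated variances with a trend, and two-sided p-values adjusted by Benjamini-Hochberg within each comparison at 0.05. The model left 3 residual degrees of freedom and the prior added 3.65. A fold change on this scale understates changes of low genes. The fitting code was checked on simulated normal values whose spread depended on level alone, without a floor. That check does not bear on how stable these calls are. The library titled 48h and the 24 h library entered the fit but no comparison.

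The genes and lists were chosen with earlier results of these data known. Values in every library are given for the 2 genes of highest mean level in each family and the 6 largest rises and falls among passing genes in each comparison. From other lists, up to 3 passing genes are named by size of change in organoids, and 2 per cell type list by fresh level. Epcam, Apoa1, Trf, Rbp4, C3, Ptprc, Nkain4 and Csf1r were named after their values were seen. So were list genes named only because they needed a fresh value or for the gap between fresh libraries. Shared sequence between genes was measured as 50-base windows found in another annotated gene. Alternatives were 2 scalings, another pseudocount, no filter, a mean of 5 RPKM, only the groups compared, no variance trend, a replicate block, and each library left out.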

Additional observations from a re-analysis of the deposited data

How the results depend on the processing

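The number of the 65 genes that passed at 12 h against fresh cells was 24. It became 27 with library medians centred, 26 after quantile normalization and 23 at a pseudocount of 0.1, and moved further to 9 with no filter, 8 of 24 tested at a mean of 5 RPKM, 14 with only the groups compared and 12 with no variance trend, with a range of 0 to 16 when each library was left out. For organoids against fresh cells the 20 became 11 with no filter and 7 of 24 tested at a mean of 5 RPKM, lay between 19 and 25 under the other settings, block apart, and ran from 0 to 21 when each library was left out. For organoids against 12 h the 1 became 2 with centring, quantile normalization, a pseudocount of 0.1 or a mean of 5 RPKM, 0 with no filter or only the groups compared (limma, 10 and 13 at an unadjusted p under 0.05), and 0 to 1 when each library was left out. The labels do not say whether replicate numbers pair the samples. The gaps between replicates correlated at 0.195, 0.224 and 0.0175 over genes, which cannot decide it. With the replicate block 23, 23 and 2 genes passed in the 3 comparisons. The 31 results of single genes under an adjusted p of 0.1 kept their direction in every run. Of the 62 others, 30 changed sign under at least 1 alternative, in 51 of 845 runs, and 3 runs passed. Single values near 0 rest on 1 or a few reads, and the cause of each change in count was not tested.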
